A study of Mus musculus with 18 samples.

Results

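Expression of 9 growth-associated genes was examined in mouse dorsal root ganglia, which hold the cell bodies of the sensory neurons. The genes were Gap43, Basp1, Stmn2, Stmn4, Flrt3, Sprr1a, Ecel1, Arg1 and Ankrd1. They were taken by symbol from the 15730 genes of the deposited count table, and all 9 were present in it. They are known as effector genes of axon regrowth, and they were picked by symbol with earlier results of these data known.

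All animals were C57BL/6 mice aged 6 to 8 weeks, and the ganglia that serve the sciatic nerve were collected 24 hours after surgery. Each of the 6 groups had 3 samples with the ganglia of 2 mice pooled in each, so a value describes a pool of whole ganglia and not a mouse or a neuron. SNA_Saline animals had their sciatic nerve injured with saline present, and Sham_Saline animals had sham surgery of that nerve with saline. Whether the injury was a crush or a cut is not given in the labels. SNA_NAC animals had the same nerve injury with 30 mM N-acetyl-cysteine, a thiol antioxidant, in place of plain saline. Sham_H2O2 animals had sham surgery with 13 mM hydrogen peroxide, an oxidant. DCA animals had a lesion of the dorsal columns of the spinal cord, where the central branches of some sensory neurons of the ganglion run. LAM animals had only the laminectomy that exposes the cord. How many neurons of a ganglion each injury reached was not measured. No genetic alteration is given for any group, and a sham group treated with N-acetyl-cysteine was not analysed here.

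A sensory neuron of the dorsal root ganglion sends 1 axon branch into the peripheral nerve and another into the spinal cord. The peripheral branch regrows after injury, whereas the central branch in the spinal cord regrows poorly. Regrowth is accompanied by the induction of growth-associated genes. Their products act at the growth cone membrane, on microtubules, in cell adhesion and in amino acid metabolism, among other roles. In whole ganglia, fewer cells of a type and less RNA per cell cannot be told apart.

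Libraries held between 6472476 and 42435331 counts, so that 1 CPM (a count scaled to a common library size, with TMM factors) stood for 6.293 to 42.19 counts. The 7 neuronal markers were abundant in every library, with summed levels of 7596 to 12776 CPM. Sham_Saline was the group with the widest spread, with a median SD of log2 CPM over all genes of 0.295 against 0.120 in LAM. Its replicate 1 had the lowest value of the group for 7 of the 9 genes. Its replicate 2 had the highest sums of neuronal and skeletal muscle markers of the 18 libraries, 12776 and 1299 CPM. Leaving out replicate 1 changed the number of all genes that differed between SNA_Saline and Sham_Saline from 430 to 2548. Leaving out replicate 2 left 206 higher and 27 lower. The calls of members in comparisons with Sham_Saline are also given without replicate 1. Which of these libraries was atypical was not tested. The samples are labelled as separate pools, and p-values measure the spread between such pools. An exact permutation test of 3 against 3 samples cannot go below 0.1, so tests come from models fitted across all genes.

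The 9 genes spanned a wide range of levels, which are compared here per transcript length in FPKM (scaled by transcript length and library size). Stmn2 was at 1312 FPKM on average over the 18 samples, Gap43 at 161 and Basp1 at 103. Stmn4 was at 19.4, Flrt3 at 14.5 and Sprr1a at 9.58 FPKM. A second feature with the symbol Flrt3 among the FPKM values stood at a constant 6.6 times that level, which would place it above Stmn4, and the feature with the identifier of the count table was used. Arg1 at 0.876, Ecel1 at 0.431 and Ankrd1 at 0.315 FPKM were the lowest, on mean counts of 26.4, 29.1 and 11 per library. The abundant genes were thus those of the growth cone and the microtubules, and the 3 lowest genes carry large counting error.

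**Figure D1:**
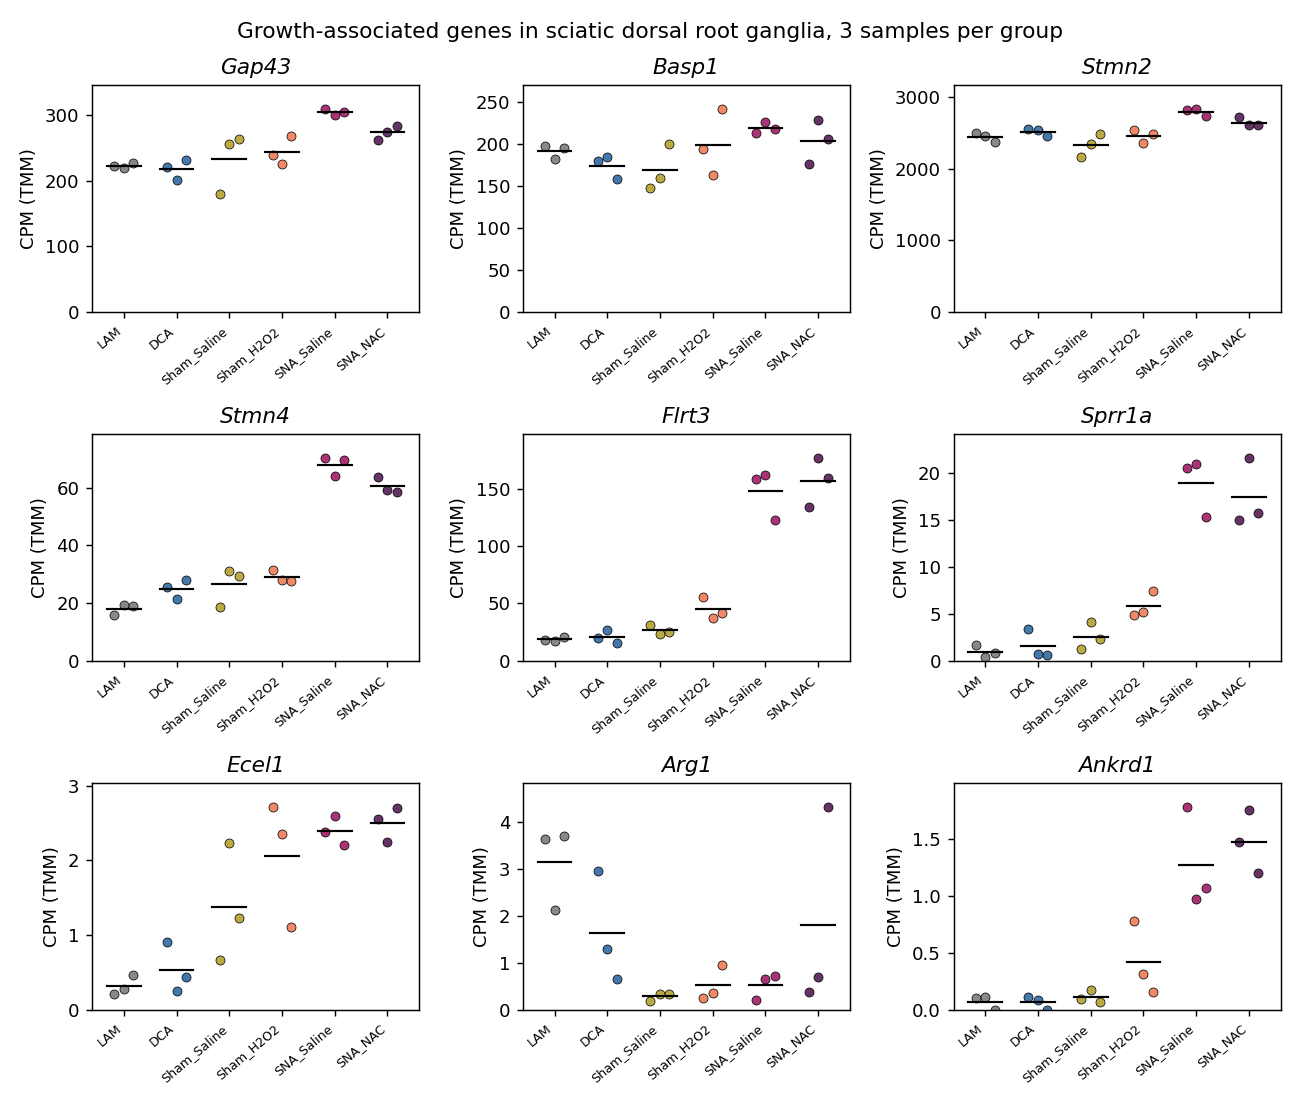
Level of each of the 9 genes in CPM after TMM scaling (y axis, starting at 0) in the 6 groups (x axis), with 1 point per sample, replicates 1 to 3 from left to right, and a bar at the mean of 3 samples. Stmn4, Flrt3, Sprr1a and Ankrd1 lay far above the sham level in SNA_Saline and SNA_NAC, whereas Arg1 was highest in LAM.

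Promoter sequences from RefSeq (GRCm38.p6) were found for 5 of the 9 genes: Basp1, Flrt3, Sprr1a, Ecel1 and Ankrd1. Those of Flrt3 and Sprr1a are shown as examples of genes that rose after nerve injury, and that of Basp1 as a gene that did not pass. Each runs 5′ to 3′ on the minus strand. Capitals mark TGANTCA, the core element bound by AP-1 factors (the family of Jun, Fos and ATF proteins), and TGACATCA, a relative of the cAMP response element TGACGTCA that was picked after these sequences had been read.
Flrt3, chr2:140671477-140671726: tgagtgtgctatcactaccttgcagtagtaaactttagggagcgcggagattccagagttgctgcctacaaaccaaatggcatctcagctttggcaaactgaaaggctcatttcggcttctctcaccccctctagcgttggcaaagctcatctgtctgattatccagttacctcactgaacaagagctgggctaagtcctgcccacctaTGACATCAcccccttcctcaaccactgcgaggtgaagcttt
Sprr1a, chr3:92485896-92486131: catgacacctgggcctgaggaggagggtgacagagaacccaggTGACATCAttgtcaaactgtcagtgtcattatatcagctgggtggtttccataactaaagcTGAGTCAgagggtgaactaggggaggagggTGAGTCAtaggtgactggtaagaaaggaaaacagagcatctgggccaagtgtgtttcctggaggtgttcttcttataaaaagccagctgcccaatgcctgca
Basp1, chr15:25413765-25414014: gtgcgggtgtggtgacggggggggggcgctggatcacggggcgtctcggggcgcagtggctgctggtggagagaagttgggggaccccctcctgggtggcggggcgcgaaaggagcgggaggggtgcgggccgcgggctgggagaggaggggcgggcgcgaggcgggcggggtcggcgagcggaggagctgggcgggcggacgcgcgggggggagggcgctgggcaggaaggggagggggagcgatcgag
Distances are counted to the first base of a motif from the RefSeq transcription start. For Sprr1a that start lies 14 bases inside the gene coordinates given below, and the printed stretch ends where those coordinates begin, so it stops 14 bases short of the start. In the Sprr1a window TGANTCA occurred at 146 and 116 bases before the transcription start, TGACATCA at 207 bases and TATAAA, the TATA box core, at 43 bases. The Flrt3 window held TGACATCA at 41 bases before the start and none of the other motifs. The windows of Basp1, Ecel1 and Ankrd1 held none of these 4 motifs. Ankrd1 also rose after nerve injury, and its window is not printed. Whether a motif goes with a rise was not tested. Searched on both strands, TGANTCA occurred in 7.81%, TGACGTCA in 1.79%, TGACATCA in 3.62% and TATAAA in 13.6% of the 32851 RefSeq windows of 300 bases (250 before and 50 after a start). The Basp1 stretch was 78.8% G and C, against 50% for Flrt3 and 49.6% for Sprr1a. These matches are letters in a window, and binding was not measured.

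The main comparison asked how the genes responded to injury of the peripheral branch, in SNA_Saline against Sham_Saline. Stmn4, Flrt3, Sprr1a and Ankrd1 rose between 2.57-fold and 10.6-fold, whereas Gap43, Basp1 and Stmn2 were 1.31-fold, 1.30-fold and 1.2-fold higher and did not pass. These 4 genes were the ones called by edgeR's quasi-likelihood test with a Benjamini-Hochberg adjusted p under 0.05, all higher. Ankrd1 had a mean count of 11 per library, near the lowest mean of 10.1 among the genes tested. Its summed counts were 51 in SNA_Saline and 119 in SNA_NAC, against 3 to 14 in each other group. It was thus among the genes tested only through the groups in which it was high, and its call is not independent of that. Of all 15730 genes tested 2.73% were called and 2.16% were called higher. At an unadjusted p under 0.05, 7 of the 9 passed against 22.5% of all genes, and for 7 of the 9 every SNA_Saline sample was above every Sham_Saline sample, which held in that direction for 10.3% of all genes. All 9 log2 fold changes were above 0, with a median of 0.79 against -0.0313 over all genes. Without Sham_Saline replicate 1 the same test called 4 of the 9, again Stmn4, Flrt3, Sprr1a and Ankrd1, and Gap43 had a log2 fold change of 0.23, Basp1 of 0.29, Stmn2 of 0.21 and Arg1 of 0.56, none of which passed.

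Gap43 (ENSMUSG00000047261, chr16:42248442-42340651, minus strand) encodes a phosphoprotein of the growth cone membrane that binds calmodulin and acts on the actin skeleton. Its level was 309, 300.5 and 304 CPM in SNA_Saline replicates 1 to 3, against 179, 255 and 264 CPM in Sham_Saline. The injured samples lay close together and above all sham samples, while the sham group was spread by its replicate 1. The log2 fold change was 0.39 (SE 0.12), with an edgeR adjusted p of 0.0968, short of the threshold. Gap43 stood at 219 to 226 CPM in LAM, 201 to 231 in DCA, 225 to 267 in Sham_H2O2 and 261 to 284 in SNA_NAC.

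Basp1 (ENSMUSG00000045763, chr15:25363277-25413764, minus strand) encodes a myristoylated membrane protein of the same kind as Gap43. It was at 214, 226 and 218 CPM in SNA_Saline and at 147, 160 and 200.3 CPM in Sham_Saline. The groups did not overlap, but the log2 fold change of 0.38 (SE 0.14) had an edgeR adjusted p of 0.159. Basp1 varied more than Gap43 in Sham_H2O2, from 163 to 241 CPM, a range that overlapped all 5 other groups.

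Stmn2 (ENSMUSG00000027500, chr3:8509360-8561606, plus strand) encodes SCG10, a stathmin that binds tubulin in growth cones. It was at 2816, 2831 and 2742 CPM in SNA_Saline and at 2159, 2350 and 2480 CPM in Sham_Saline, again without overlap. The log2 fold change was 0.26 (SE 0.084; edgeR adjusted p = 0.108). This was the gene with the smallest change in the set and the smallest standard error. Its transcript had 41.3% G and C, at the 10.1 percentile of all genes, and with offsets for GC share and length its log2 fold change was 0.02 (edgeR adjusted p = 0.957; range over all its alternatives 0.00244 to 0.957).

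Stmn4 (ENSMUSG00000022044, chr14:66344296-66361680, plus strand) encodes RB3, another neuronal stathmin. It was at 70.3, 64.1 and 69.7 CPM in SNA_Saline and at 18.8, 31.2 and 29.5 CPM in Sham_Saline, and every injured sample was far above every sham sample. The mean rose from 26.5 ± 6.70 to 68.0 ± 3.42 CPM (SD, n = 3 each), and the log2 fold change was 1.36 (SE 0.16; edgeR adjusted p = 7.87e-05). Within the 3 sequencing lanes, each of which held 1 sample of every group, the log2 differences were 1.89, 1.04 and 1.24. The remaining members of the stathmin family, Stmn1 with a log2 fold change of 0.06 and Stmn3 with 0.00, did not pass. In edgeR, 1 of the 4 stathmins was thus called.

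Flrt3 (ENSMUSG00000051379, chr2:140650914-140671469, minus strand) encodes a leucine-rich repeat transmembrane protein that binds Unc5 receptors and latrophilins on other cells. It lies within Macrod2, a gene on the opposite strand, with no shared exon bases. Flrt3 was at 159, 162 and 122 CPM in SNA_Saline and at 31.4, 23.8 and 25.4 CPM in Sham_Saline, and the groups were far apart. The mean rose from 26.8 ± 4.03 to 148 ± 22.03 CPM (SD, n = 3 each), which was 5.50-fold, with a log2 fold change of 2.46 (SE 0.20; edgeR adjusted p = 2.88e-06). Within the lanes the log2 differences were 2.33, 2.77 and 2.27. This gene had the smallest p of the 9, and over its 16 alternatives the log2 fold change ran from 2.23 to 2.59.

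Sprr1a (ENSMUSG00000050359, chr3:92483952-92485895, minus strand) encodes a small proline-rich protein first known from the cornified envelope of skin, which injured sensory neurons also make. It was at 20.5, 20.97 and 15.3 CPM in SNA_Saline and at 1.29, 4.17 and 2.31 CPM in Sham_Saline. The groups did not overlap, and each injured sample was several times above the highest sham sample. The mean rose from 2.59 ± 1.46 to 18.9 ± 3.14 CPM (SD, n = 3 each), and the log2 fold change was 2.85 (SE 0.50; edgeR adjusted p = 0.00373). Of 7 keratinocyte markers, 3 were in the count table, where Krt10 was at 2.48 to 6.67 CPM over the 18 libraries, Krt1 at 0.795 to 1.81 CPM and Krtdap at 0 to 2.07 CPM. Their sum was 4.59 to 6.85 CPM in Sham_Saline and 4.76 to 6.42 CPM in SNA_Saline, ranges that overlap, and none of the 3 passed. The other 4 were near 0 in FPKM: Krt5 was listed at no more than 0.0293 FPKM in any library, Ivl at no more than 0.0441 Krt14 at no more than 0.174 and Lor at no more than 0.235. Sprr1a has close relatives on the same chromosome, and how reads shared with them were counted is not given in the sources used here. Among the FPKM values were 15 other Sprr genes, of which 10 were listed at 0 in all 18 libraries, among them Sprr1b.

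Ankrd1 (ENSMUSG00000024803, chr19:36111961-36120099, minus strand) encodes a nuclear and sarcomeric ankyrin repeat protein best known from heart and muscle, where it is a target of YAP. It had 27, 9 and 15 counts in SNA_Saline, or 1.78, 0.973 and 1.07 CPM, and 2, 4 and 1 counts in Sham_Saline, or 0.0953, 0.168 and 0.0679 CPM. The groups did not overlap. From the summed counts of 51 and 7, and the library totals, the ratio was 11.3, with a 95% interval of 5.09 to 29.4 that covers counting error only. The edgeR log2 fold change was 3.41 (SE 0.58; adjusted p = 0.00291). The 7 skeletal muscle markers summed to 7.26 to 1299 CPM in Sham_Saline and to 26.2 to 291 CPM in SNA_Saline. Sham_Saline replicate 2, the library with the highest muscle sum, held Ankrd1 at 0.168 CPM on 4 counts. That was the highest value of its group and below every SNA_Saline sample. None of the 7 muscle markers passed in this comparison, and their part in the Ankrd1 value was not tested.

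Ecel1 (ENSMUSG00000026247, chr1:87147655-87156521, minus strand) encodes a membrane endopeptidase of neurons, also called DINE, that is related to endothelin-converting enzymes. It was at 2.38, 2.59 and 2.21 CPM in SNA_Saline and at 0.667, 2.23 and 1.22 CPM in Sham_Saline, so the groups overlapped through Sham_Saline replicate 2. The log2 fold change was 0.77 (SE 0.39; edgeR adjusted p = 0.250). The Ecel1 transcript had 60% G and C, at the 96.1 percentile of all genes. The slope of counts on GC share ran from -0.219 to 0.431 log2 units per SD of GC over the 18 libraries, and the steepest was that of Sham_Saline replicate 2. With offsets for GC share and length, chosen after seeing the data, the log2 fold change was 1.36 (edgeR adjusted p = 0.0138), and over all 15 alternatives the adjusted p ran from 0.0138 to 0.517. Without Sham_Saline replicate 2 the log2 fold change was 1.37 (adjusted p = 0.133), and without replicate 1 it was 0.42 (adjusted p = 0.395).

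Arg1 (ENSMUSG00000019987, chr10:24915221-24927484, minus strand) encodes arginase 1, the cytosolic enzyme that makes ornithine, the precursor of polyamines, and is also a marker of alternatively activated macrophages. It had 3, 6 and 10 counts in SNA_Saline (0.198, 0.649 and 0.713 CPM) and 4, 8 and 5 counts in Sham_Saline (0.191, 0.337 and 0.339 CPM). The groups overlapped, and the log2 fold change of 0.79 (SE 1.10) had an edgeR adjusted p of 0.668. The ratio of summed counts per depth was 1.73, with a 95% counting interval of 0.851 to 3.54, which covers counting error and not the spread between pools.

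**Figure D2:**
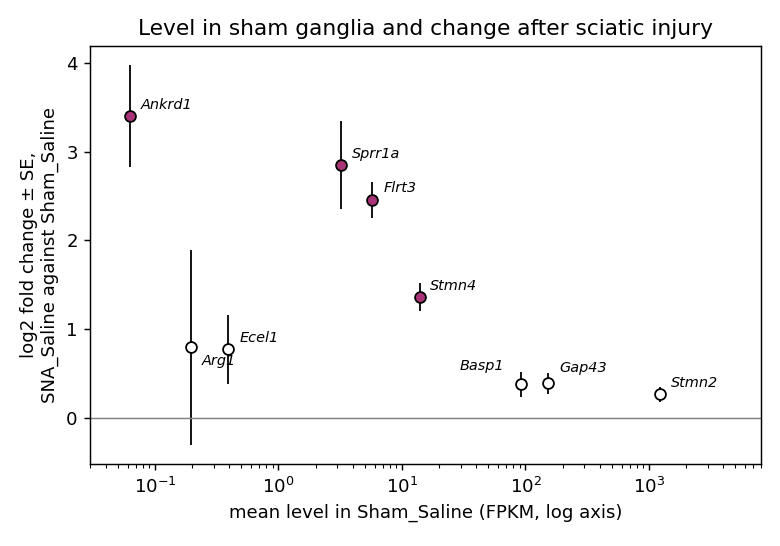
Log2 fold change of each gene in SNA_Saline against Sham_Saline (y axis, bars ± SE) against its mean FPKM in Sham_Saline (x axis, log scale), with filled points for an edgeR adjusted p under 0.05. The 3 most abundant genes in sham ganglia, Basp1, Gap43 and Stmn2, had log2 fold changes of 0.38, 0.39 and 0.26.

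With offsets for GC share and length, Gap43 was also called in this comparison (log2 fold change 0.37, edgeR adjusted p = 0.00527), and Basp1 had a log2 fold change of 0.68 (adjusted p = 0.120). That setting called 6 of the 9 genes. DESeq2 called 5, the same 4 as edgeR and Stmn2 (adjusted p = 0.00244). The requirement of at least 10 counts in every sample removed Sprr1a and Ankrd1 from the test and left 2 called. Over all genes, 340 were higher and 90 lower in the edgeR test, against 520 and 343 with DESeq2 and 811 and 356 with the offsets.

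Genes related to the 9 by family or pathway were grouped in lists, which were drawn up with earlier results of these data known. Among 11 FLRT proteins and receptors, Flrt3 rose and Unc5b, a netrin receptor that also binds FLRT proteins, fell from 7.72 ± 2.01 to 3.55 ± 0.265 CPM (SD, n = 3 each), with a log2 fold change of -1.12 (SE 0.24; edgeR adjusted p = 0.0160). The median of the 10 genes other than Flrt3 was -0.33. Among 14 genes of arginine and polyamine metabolism 2 were called higher and none lower, with a median of 0.12 for the 13 without Arg1. Odc1, ornithine decarboxylase, which starts polyamine synthesis, rose from 99.3 ± 5.19 to 179 ± 17.5 CPM (edgeR adjusted p = 3.48e-05). Azin1, the antizyme inhibitor that protects it from breakdown, rose from 306 ± 68.2 to 599 ± 101 CPM (edgeR adjusted p = 0.00647). Thus the enzyme after arginase in the pathway rose while Arg1 itself did not pass.

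Among 20 other growth cone and axon adhesion genes 1 passed, Plaur, the receptor of urokinase, which rose from 7.20 ± 2.42 to 22.3 ± 3.38 CPM (SD, n = 3 each; log2 fold change 1.63, SE 0.21, edgeR adjusted p = 0.000187). The median of these 20 genes was -0.03, equal to that of all genes to 2 decimals. Of 5 growth cone membrane phosphoproteins 0 passed in edgeR, and the members other than Gap43 and Basp1 were Marcks with a log2 fold change of 0.66 (adjusted p = 0.164), Marcksl1 with 0.49 (adjusted p = 0.142) and Nrgn with -0.93 (adjusted p = 0.370). Of the 6 endothelin-converting enzyme relatives measured, 0 passed. Of 7 muscle ankyrin repeat and YAP target genes only Ankrd1 did. The 6 others had a median log2 fold change of -0.08, and the part of YAP in the Ankrd1 value was not tested.

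**Figure D3:**
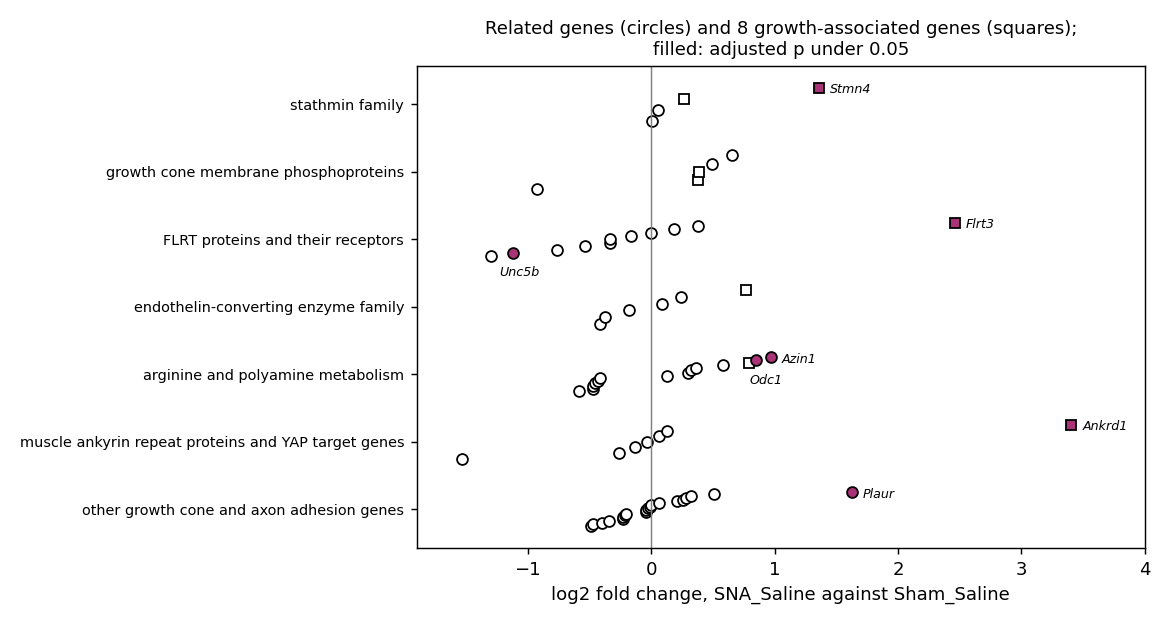
Log2 fold change in SNA_Saline against Sham_Saline (x axis) of 8 of the 9 genes (squares; Sprr1a, the only Sprr gene tested, is not plotted) and of related genes (circles) in 7 lists (y axis), filled where the edgeR adjusted p was under 0.05. The filled symbols are Stmn4, Flrt3, Unc5b, Odc1, Azin1, Ankrd1 and Plaur, and the lists of growth cone phosphoproteins and of endothelin-converting enzymes have none.

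DCA was set against LAM to ask how the genes responded when central branches in the dorsal columns were injured. None of the 9 genes passed in edgeR, where 0% of all genes were called, and DESeq2 and limma on the FPKM values called 0 of the 9 as well. At an unadjusted p under 0.05, 1 of the 9 passed against 5.04% of all genes. That gene was Stmn4, at 25.4, 21.3 and 28.0 CPM in DCA and 15.9, 19.5 and 19 CPM in LAM, also the only member without overlap, against 11.9% of all genes in that direction. Its log2 fold change was 0.46 (SE 0.16; unadjusted p = 0.0104 in the fit across all genes, adjusted p = 0.624). The median of the 9 was 0.12, against -0.00379 over all genes.

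For the abundant genes the intervals after dorsal column injury held 0. The 95% interval of the log2 difference was -0.29 to 0.22 for Gap43, -0.44 to 0.16 for Basp1 and -0.14 to 0.22 for Stmn2. With offsets for GC share and length the log2 difference was -0.06 for Gap43, -0.40 for Basp1 and 0.22 for Stmn2, and none of these passed. Flrt3 was at 19.7, 27.2 and 15.2 CPM in DCA and 18.4, 17.1 and 20.8 in LAM, with a log2 difference of 0.12 and an interval of -0.30 to 0.55. Sprr1a was at 3.39, 0.683 and 0.645 CPM in DCA and 1.66, 0.379 and 0.806 in LAM. Its log2 fold change of 0.99 came from DCA replicate 1 and was -0.37 without it. Ankrd1 had 3, 1 and 0 counts in DCA and 1, 2 and 0 in LAM, a ratio per depth of 1.22 with a 95% counting interval of 0.207 to 8.36.

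The difference between the responses to peripheral and central injury was tested as an interaction, (SNA_Saline - Sham_Saline) - (DCA - LAM). The lesions may have reached unlike shares of the neurons in a ganglion, which cannot be told apart here from unlike responses of the injured neurons. Flrt3 was the member called, with a difference of 2.34 on the log2 scale (SE 0.28; edgeR adjusted p = 0.000498), among 1.61% of all genes called and 1.23% called with a positive difference. Over its 22 alternatives this difference ran from 2.00 to 2.57 and stayed past the threshold, with an adjusted p of at most 0.00346. At an unadjusted p under 0.05, 6 of the 9 passed against 31.4% of all genes, and all 9 differences were above 0, with a median of 0.90 against -0.0198. Stmn4 had a difference of 0.90 (SE 0.22) and an edgeR adjusted p of 0.0504.

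Without Sham_Saline replicate 1 the interaction called Flrt3 (2.47, edgeR adjusted p = 0.000497) and Stmn4, while the difference was 0.27 for Gap43, 0.43 for Basp1, 0.17 for Stmn2, 1.49 for Sprr1a, 3.04 for Ankrd1, 1.46 for Arg1 and -0.30 for Ecel1. The Stmn4 difference passed at 0.05 in 5 of its 22 alternatives. It was 0.71 without Sham_Saline replicate 1 (edgeR adjusted p = 0.0194), 1.04 without replicate 2 (adjusted p = 0.0411) and 1.32 with the GC and length offsets (adjusted p = 2.07e-05); the adjusted p ran from 2.07e-05 to 0.145 over all 22. The difference for Sprr1a was 1.86 (adjusted p = 0.132) and was 3.217 without DCA replicate 1 (adjusted p = 0.0434, range over alternatives 0.0434 to 0.311). For Ankrd1 it was 3.17, with an SE of 1.44 (adjusted p = 0.147, range 0.0269 to 0.476). Gap43, Basp1 and Stmn2 had differences of 0.42, 0.52 and 0.22, and that of Gap43 passed with the offsets (0.44, adjusted p = 0.0275). Ecel1 showed a difference of 0.05 with an interval of -1.60 to 1.71.

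Of the related genes, Odc1 (difference 0.85, edgeR adjusted p = 0.00229), Azin1 (1.18, adjusted p = 0.0310) and Plaur (1.51, adjusted p = 0.0260) passed the interaction test. Unc5b had a difference of -1.26 (adjusted p = 0.0642). The mean of Odc1 was 92.9 ± 5.87 CPM with laminectomy alone and 92.9 ± 3.77 CPM with the dorsal column lesion (SD, n = 3 each).

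**Figure D4:**
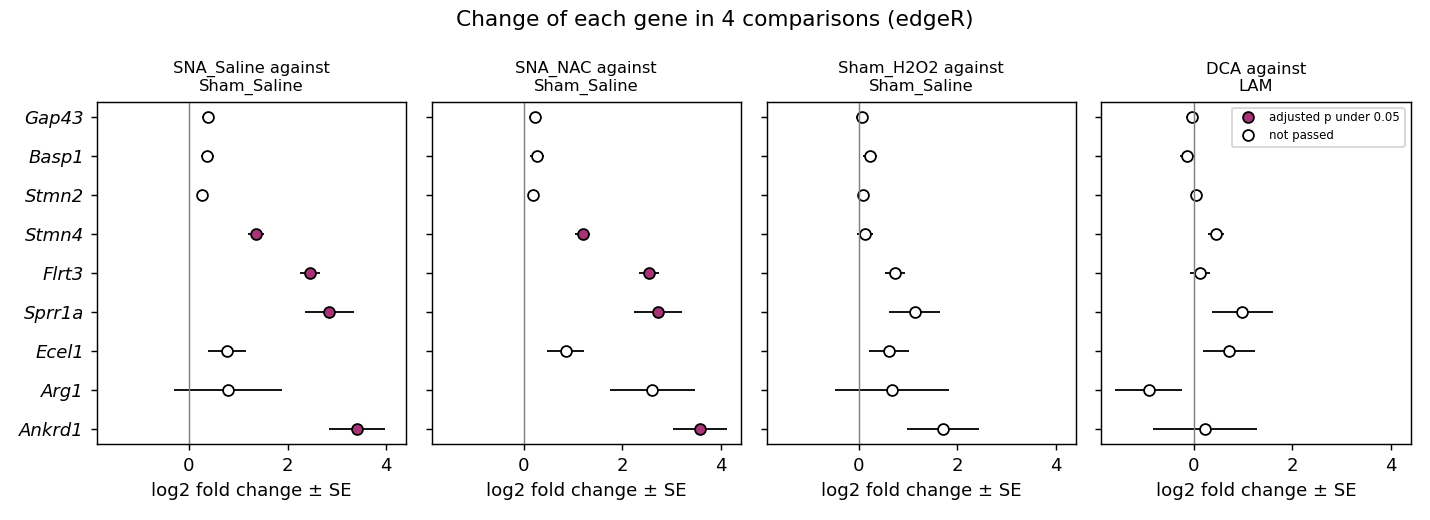
Log2 fold change of each gene (x axis, bars ± SE; y axis, the 9 genes) in 4 comparisons from the same edgeR fit, with filled points for an adjusted p under 0.05. The filled points in both nerve injury panels are Stmn4, Flrt3, Sprr1a and Ankrd1, and the DCA against LAM panel has none; the 3 panels that use Sham_Saline share those 3 samples.

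The third comparison asked whether N-acetyl-cysteine at the injured nerve altered these genes, in SNA_NAC against SNA_Saline. None of the 9 passed in edgeR, in DESeq2 or in limma on the FPKM values, edgeR called 0% of all genes, and 0 of the 9 had an unadjusted p under 0.05, against 2% of all genes. Flrt3 was at 134, 177 and 159 CPM in SNA_NAC, with a log2 difference of 0.08 and a 95% interval of -0.32 to 0.49. Sprr1a was at 15.0, 21.6 and 15.7 CPM, with a difference of -0.12 and an interval of -1.06 to 0.81. Ankrd1 had 62, 28 and 29 counts, or 1.47, 1.75 and 1.203 CPM, with a difference of 0.17 and an interval of -0.67 to 1.00. Of these 3 genes Flrt3 had the narrowest interval.

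Gap43, Stmn2 and Stmn4 were lower in every SNA_NAC sample than in every SNA_Saline sample, which held in that direction for 5.63% of all genes. Gap43 was at 261, 275 and 284 CPM (log2 difference -0.16, interval -0.41 to 0.10). Stmn2 was at 2717, 2606 and 2605 CPM (-0.08, interval -0.26 to 0.10), and Stmn4 at 63.8, 59.2 and 58.4 CPM (-0.17, interval -0.50 to 0.15). The edgeR adjusted p was 1.00 for each of the 9, and across the alternatives none was called. Arg1 was at 0.379, 0.688 and 4.31 CPM, and its log2 difference of 1.81 was -0.02 without SNA_NAC replicate 3.

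Set against the shared Sham_Saline samples, the injured ganglia with N-acetyl-cysteine had the same 4 genes called, among 3.32% of all genes called and 2.47% called higher. Ankrd1 was again tested only through the groups in which it was high. For Flrt3 the log2 fold change was 2.54 in SNA_NAC and 2.46 in SNA_Saline. For Sprr1a the 2 values were 2.73 and 2.85, for Ankrd1 3.57 and 3.41, and for Stmn4 1.19 and 1.36. The edgeR adjusted p-values in SNA_NAC were 2.05e-06 for Flrt3, 0.00442 for Sprr1a, 0.000962 for Ankrd1 and 0.000256 for Stmn4. For 7 of the 9 genes every SNA_NAC sample was above every Sham_Saline sample, against 11.5% of all genes, and 7 had an unadjusted p under 0.05, against 27.6%. Without Sham_Saline replicate 1 these 4 genes were again the ones called. With only the 2 groups in the fit Stmn4 had an adjusted p of 0.0569, the sole setting in which a call of this comparison was lost among genes still tested. With the GC and length offsets Gap43 (0.30, edgeR adjusted p = 0.0194; range over its alternatives 0.0194 to 0.516) and Ecel1 (1.47, adjusted p = 0.00476; range 0.00476 to 0.352) passed as well. Arg1 had a log2 fold change of 2.60 (adjusted p = 0.0998), which was 3.15 without SNA_NAC replicate 1 (adjusted p = 0.0397) and 0.77 without replicate 3 (adjusted p = 0.533). Beside it, 1 of the 9 macrophage markers passed in this comparison, Mrc1 (log2 fold change 0.73, edgeR adjusted p = 0.0470), which is named after its value was seen. The median of the 9 markers was 0.01, and their summed mean was 178 CPM in SNA_NAC and 206 CPM in Sham_Saline. Their part in the Arg1 value was not tested.

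The fourth comparison asked whether hydrogen peroxide at an uninjured nerve moved the genes, in Sham_H2O2 against Sham_Saline. None of the 9 passed in edgeR, in DESeq2 or in limma on the FPKM values, and edgeR called 0% of all genes. At an unadjusted p under 0.05, 3 of the 9 passed, Flrt3, Sprr1a and Ankrd1, against 9.15% of all genes. Flrt3 was at 55.4, 37.1 and 42.1 CPM in Sham_H2O2 against 31.4, 23.8 and 25.4 CPM in Sham_Saline, and Sprr1a at 4.91, 5.21 and 7.47 against 1.29, 4.17 and 2.31 CPM. In these genes every peroxide sample was above every saline sample, which held in that direction for 2.16% of all genes.

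The log2 fold change in Sham_H2O2 was 0.73 for Flrt3 (SE 0.20), 1.14 for Sprr1a (SE 0.51) and 1.71 for Ankrd1 (SE 0.72), each with an edgeR adjusted p of 0.449. Over the alternatives the adjusted p of Flrt3 ran from 0.110 to 0.973, so it passed in none of them. Without Sham_Saline replicate 1 the log2 fold changes were 0.86 for Flrt3 (adjusted p = 0.110), 0.79 for Sprr1a (adjusted p = 0.280) and 1.57 for Ankrd1 (adjusted p = 0.186). Within the lanes the log2 difference of Flrt3 was 0.82, 0.64 and 0.73. Ankrd1 had 6, 7 and 1 counts in Sham_H2O2, which gave a ratio to Sham_Saline of 3.29 per depth with a 95% counting interval of 1.24 to 9.64. Stmn4 was at 31.6, 27.9 and 27.7 CPM and Gap43 at 239.6, 225 and 267 CPM, both overlapping Sham_Saline. The median of the 9 was 0.61 against -0.0196 over all genes, and it shares the Sham_Saline samples with the nerve injury comparisons. Flrt3 in Sham_H2O2 reached a mean of 44.9 ± 9.42 CPM, against 148 ± 22.03 CPM in SNA_Saline (SD, n = 3 each).

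The fifth comparison set the surgical controls against each other, Sham_Saline against LAM. None of the 9 passed in edgeR, where 0.0699% of all genes were called, and DESeq2 called 1, Stmn4 (adjusted p = 0.0408). At an unadjusted p under 0.05, 5 of the 9 passed, against 30.3% of all genes. Flrt3 and Ecel1 were higher in every Sham_Saline sample than in every LAM sample, against 16.4% of all genes, and Arg1 was lower in every sample, against 14.2%. The site of surgery and the saline treatment both differ between these groups and cannot be told apart.

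Arg1 showed the widest gap. It was at 3.62, 2.11 and 3.69 CPM in LAM and at 0.191, 0.337 and 0.339 CPM in Sham_Saline, and at 2.94, 1.28 and 0.645 CPM in DCA, which overlapped LAM and was above Sham_Saline throughout. Summed counts gave a ratio of Sham_Saline to LAM of 0.0900 per depth, with a 95% counting interval of 0.0513 to 0.148. The edgeR log2 fold change was -3.42 (SE 0.85; adjusted p = 0.104). Arg1 was the member with its highest mean in LAM and, like Basp1 and Stmn2, it had its lowest mean in Sham_Saline. The 9 macrophage markers summed to 198 to 275 CPM in LAM, 190 to 240 in DCA, 188 to 235 in Sham_Saline and 191 to 229 in SNA_Saline, ranges that overlap, and their part in the result was not tested.

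Ecel1 was at 0.207, 0.271 and 0.470 CPM in LAM, on 2 to 14 counts, against 0.667, 2.23 and 1.22 CPM in Sham_Saline. The ratio of summed counts per depth was 3.94, with a 95% counting interval of 2.42 to 6.69, and the edgeR log2 fold change of 1.97 (SE 0.48) had an adjusted p of 0.104. With the GC and length offsets it was 1.26 (adjusted p = 0.124). Without Sham_Saline replicate 1, 4 of the 9 genes passed, Stmn4 (log2 fold change 0.74, adjusted p = 0.0236), Sprr1a (1.97, adjusted p = 0.0275), Ecel1 (2.31, adjusted p = 0.0236) and Arg1 (-3.19, adjusted p = 0.0301), and all genes called went from 11 to 5009. With the offsets 1 member passed, Flrt3 (0.75, adjusted p = 0.0380). Over all its alternatives the adjusted p of Ecel1 ran from 0.0236 to 0.460 and that of Arg1 from 0.0301 to 0.460.

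**Figure D5:**
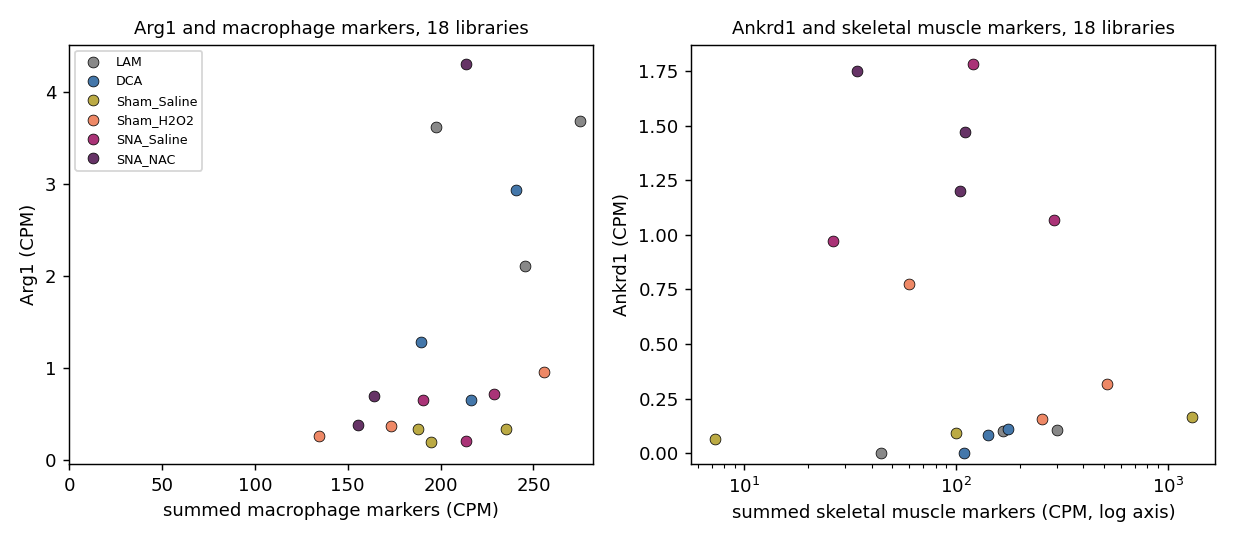
Left, Arg1 (CPM, y axis) against the sum of 9 macrophage markers (CPM, x axis); right, Ankrd1 (CPM, y axis) against the sum of 7 skeletal muscle markers (CPM, log x axis), with 1 point for each of the 18 libraries, coloured by group. Arg1 was between 2.11 and 3.69 CPM in the LAM libraries. The library with the highest muscle sum, a Sham_Saline library at 1299 CPM, had 0.168 CPM of Ankrd1, the highest value of its group. The part of either cell type was not tested.

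Every member but Arg1 had its highest mean in a group with nerve injury. For the called genes that follows in part from the calls, which set those groups against Sham_Saline. The mean of Flrt3 was 18.8 CPM in LAM and 20.7 CPM in DCA, which overlapped. Sham_Saline, at 26.8 CPM, overlapped DCA but not LAM, and Sham_H2O2, at 44.9 CPM, overlapped no other group. SNA_Saline, at 148 CPM, and SNA_NAC, at 157 CPM, overlapped. Sprr1a had means of 0.947, 1.57, 2.59, 5.86, 18.9 and 17.4 CPM in the same order of groups, a 20.0-fold span between LAM and SNA_Saline. Its values in LAM (0.379 to 1.66 CPM), DCA (0.645 to 3.39) and Sham_Saline (1.29 to 4.17) overlapped one another. Stmn4 spanned 3.75-fold, from 18.1 CPM in LAM to 68.0 CPM in SNA_Saline, and its values in DCA, Sham_Saline and Sham_H2O2 overlapped one another. Gap43, Basp1 and Stmn2 spanned 1.40-fold, 1.30-fold and 1.2-fold between their highest and lowest group means.

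Across the 18 samples, Flrt3 and Ankrd1 had a Pearson r of 0.952 in log2 CPM, Flrt3 and Stmn4 of 0.918 and Stmn4 and Sprr1a of 0.889. The correlations of Arg1 with the other members ran from -0.492 with Ecel1 to 0.220 with Basp1. These correlations describe samples that share groups, lanes and library depth, and carry no test. The genes with the most similar pattern, among those with a mean count of at least 50, were Sema6a (r = 0.991) and Adcyap1 (0.989) for Flrt3, Cckbr (0.980) and Npy (0.957) for Sprr1a, and Smim3 (0.986) and Cdkn1a (0.977) for Stmn4. For Gap43 they were Sbds (0.943) and Cd63 (0.931), for Basp1 A730085K08Rik (0.957) and Uchl3 (0.941), and for Stmn2 Ctsl (0.907) and Arl6ip5 (0.896). The 3 members with a lower mean count were looked at after their values were seen. Ankrd1 was most like Lmo7 (0.974) and Vash2 (0.968), Ecel1 most like Vgf (0.919) and Fgf3 (0.913), and Arg1 most like Ccl9 and Wfdc17 (both 0.803).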

How the data were processed

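RNA from 18 pools of mouse dorsal root ganglia was sequenced with a stranded mRNA kit, single-end for 100 cycles, 6 libraries to each of 3 lanes, per the labels' protocols. The lane equals the replicate number. The authors deposited whole-number counts per gene, whose lowest mean over samples was 10.1. They also deposited FPKM values for 45904 features. The submitters' processing notes name TopHat2 2.0.12, Bowtie2 2.2.3, SAMtools 0.1.19, HTSeq 0.6.0, edgeR 3.8.6, limma 3.22.7, R 3.1.1, FastQC 0.10.1 and the build mm10, without a role for each. Whether counting used strand is not given in the sources used here. For 15638 of the 15730 genes, and 8 of the 9 members, FPKM equals the count times a gene factor and a sample factor within 0.01 log2; Flrt3 departs by 0.0833.

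For the tests, R 4.3.3 and edgeR 4.0.16 were used (TMM, filterByExpr, glmQLFit, glmQLFTest), with all 18 samples in 1 fit without a block. No gene of the 15730 was lost to the filter. Benjamini-Hochberg adjustment ran over all genes in each of 7 contrasts, with a threshold of 0.05. The common biological coefficient of variation was 17.4%. Intervals of log2 fold changes are 95% from the quasi-likelihood fit, and counting intervals are exact binomial. Log2 CPM used a prior count of 2. The members and the lists of related genes were chosen with earlier results of these data known. Named genes were the 9 members, up to 4 passing genes per list in SNA_Saline against Sham_Saline, and the 2 genes of most similar pattern for each member with a mean count of at least 50.

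Alternatives were DESeq2 1.42.0, no filter, a floor of 10 counts per gene in all samples, a fit of only the groups compared, the replicate block, a threshold of 0.10, limma 3.58.1 on log2(FPKM + 1) and log2(FPKM + 0.1), and leaving out each sample. Offsets for GC share and length (natural splines, 5 degrees of freedom, longest transcript, known for 15648 genes), alone and with the block, were added after seeing the data. Same-numbered samples of Sham_Saline and LAM had correlated deviations (0.244, 0.422 and 0.267), the sole comparison with all 3 above 0.1. Reads carry no molecular identifiers, so counting intervals cover counting error only. The fit for SNA_Saline against Sham_Saline over 15730 genes was tested on simulated data. It recovered 98% of 50 genes set to a log2 change of 2, 72% of 50 set to 1 and 20% of 50 set to 0.58. Of 50 genes set to -1 it recovered 62%. Figures were drawn with matplotlib 3.10.9.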

Additional observations from a re-analysis of the deposited data

Results flagged for a closer look

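The response of Flrt3 to sciatic nerve injury differed from its response to dorsal column injury. The difference itself was tested as an interaction and was 2.34 on the log2 scale (SE 0.28; edgeR adjusted p = 0.000498).

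A signal from Sprr relatives of Sprr1a appeared in the FPKM table for genes that the count table does not hold. Sprr2j-ps had a mean of 0.222 FPKM in SNA_Saline, with 0.0953 to 0.465 FPKM in its 3 samples, and was listed at 0 in every Sham_Saline, Sham_H2O2, LAM and DCA sample and in 2 of 3 SNA_NAC samples. Sprr2g had a mean of 0.123 FPKM in SNA_Saline, with 0.0987 to 0.160 FPKM in its 3 samples, and was listed at 0 in every Sham_Saline, LAM and DCA sample. Its mean was 0.0786 FPKM in SNA_NAC, and it reached 0.0717 FPKM in Sham_H2O2. Both genes were picked from 15 Sprr relatives after their values were seen. They lie outside the count table, so the number of reads behind these values is not known here. Both levels are far below the 22.97 FPKM of Sprr1a in SNA_Saline, and how reads shared within the family were assigned was not tested.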

How the results depend on the processing

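Depth limits Ankrd1, Arg1 and Ecel1 most, with 0 to 110 counts per library. Of the alternative values of single members, 958 kept their direction and side of the threshold, 31 passed newly, 1 no longer passed and 30 changed sign, all 30 of them in differences that had not passed. Under every alternative 0 members passed for Sham_H2O2 against Sham_Saline, for SNA_NAC against SNA_Saline and for DCA against LAM. With DESeq2, SNA_NAC against Sham_Saline gave Ankrd1 no adjusted p and called Arg1 (2.62, adjusted p = 0.0239). With at least 10 counts in every sample, 2 members passed in SNA_Saline and in SNA_NAC against Sham_Saline. That filter removed Sprr1a and Ankrd1 from the test. The interaction called 2 members with DESeq2, at a threshold of 0.10 and with limma on log2(FPKM + 0.1), and 3 with limma on log2(FPKM + 1) and with the offsets, alone or with the block. Leaving out 1 sample it called 1 to 2. Sham_Saline against LAM called 1 with DESeq2 and with the offsets and 0 to 4 leaving out 1 sample.

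With the replicate block the members called were 4 in SNA_Saline and in SNA_NAC against Sham_Saline, 1 in the interaction and 0 elsewhere, as without it; over all genes it gave 118 in place of 254 for the interaction and 6 in place of 11 for Sham_Saline against LAM. Same-numbered samples of SNA_Saline and Sham_Saline had correlations of 0.0952, -0.647 and -0.17. For Sham_H2O2 and Sham_Saline the correlations were 0.0308, 0.555 and 0.311. The replicate number equals the lane, so the block covers all 6 groups.

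With the offsets, alone and with the block, Stmn2 changed to -0.21 and -0.20 in the interaction, -0.085 and -0.081 in SNA_NAC against Sham_Saline, -0.124 and -0.122 in Sham_H2O2 against Sham_Saline and 0.234 and 0.232 in Sham_Saline against LAM. Sprr1a changed to 0.0034 and 0.033 in SNA_NAC against SNA_Saline. Ankrd1 in DCA against LAM was -0.0029 and -0.021 with limma on log2(FPKM + 1) and log2(FPKM + 0.1). The cause was not tested. Leaving out 1 sample, the log2 values in DCA against LAM ran from -0.080 to 0.018 for Gap43, -0.11 to 0.30 for Flrt3, -0.37 to 1.41 for Sprr1a and -0.80 to 1.09 for Ankrd1. Those of SNA_NAC against SNA_Saline ran from -0.035 to 0.18 for Flrt3 and -0.023 to 2.35 for Arg1, those of Sham_H2O2 against Sham_Saline from -0.090 to 0.17 for Gap43 and -0.065 to 0.27 for Stmn4, that of Gap43 in Sham_Saline against LAM from -0.037 to 0.22, and that of Ecel1 in the interaction from -0.43 to 0.68.

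All genes called moved by over 1.5 times more often than the members did. For SNA_Saline against Sham_Saline they were 430, and 863 with DESeq2, 65 with only the groups compared, 822 at 0.10, 1167 with the offsets (1014 with the block) and 174 to 2548 leaving out 1 sample. For the interaction they were 254 (193 higher), and 1723 (701 higher), 151, 2398, 797 (636) and 55 to 4600. For SNA_NAC against Sham_Saline they were 522 (389 higher), and 1223 (622 higher), 68, 1288, 1220 (1128) and 215 to 5861. For Sham_Saline against LAM they were 11, and 1141, 1, 16, 26 (23) and 4 to 5009, with 4 under the minimum of 10 counts and 5 with limma on log2(FPKM + 1). The counts of 0 became 2 in DCA against LAM and 4 in Sham_H2O2 against Sham_Saline with DESeq2. The highest count of each range was without Sham_Saline replicate 1.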
